A study of Homo sapiens with 6 samples.

Results

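The sterol and fatty acid synthesis genes described here are HMGCS1, FDFT1, SQLE, FASN, SCD, SREBF1, SREBF2 and INSIG1. They were chosen by name, as the array probes annotated with one of these 8 symbols. They accounted for 9 of the 50599 probes on the array, with SREBF1 carrying 2 probes and every other gene 1. All 9 probes passed the detection filter and were among the 31760 probes tested, and each was well above background on all 6 arrays.

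RNA was taken from 6 tumors grown under the skin of female BALB/c nu/nu mice, aged 8 to 10 weeks, from BxPC-3 cells, a line derived from a human pancreatic adenocarcinoma. The 3 control mice received saline vehicle, and the 3 treated mice received 200 mg/kg deferasirox (DFX), an oral iron chelator, by gavage every second day for 21 days. Both groups carried the same line, with no allele or agent beyond these named in the labels. Nude mice lack a thymus and so most T cells, the tumors hold mouse stroma and blood, and a single line was used. Each tumor was hybridized to 1 one-color human 60-mer array. All 6 arrays lay on 1 slide, with controls in row 1 and DFX-treated tumors in row 2, so the row cannot be told apart from the treatment. Between 50.4% and 56.6% of all probes were well above background per array, with the lowest share in DFX replicate 2, and no spot was saturated. In RNA from whole tumors, fewer cells of a type and less RNA per cell cannot be told apart.

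Cells hold cholesterol and unsaturated fatty acid levels steady through the sterol regulatory element-binding proteins (SREBPs). SREBF1 and SREBF2 encode SREBP precursors that sit in the endoplasmic reticulum, bound to SCAP. When sterols are plentiful, INSIG1 holds the complex there. When they are scarce, the complex moves to the Golgi, the precursors are cleaved, and the released fragments enter the nucleus and bind sterol regulatory elements (SREs) in the promoters of lipid genes. SREBF2 is best known for the sterol pathway and SREBF1 for the fatty acid pathway, and INSIG1 is itself a target, which closes a feedback loop. Several enzymes of both pathways, among them the desaturase SCD, need iron for catalysis.

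Promoters are shown for 3 of the genes. INSIG1 is the only gene of the 8 whose tumors separated by treatment, as 15.4% of all genes did by their brightest probe. SREBF2 is the only one of the 5 with a promoter entry to hold an exact SRE in its window, and HMGCS1 represents the sterol enzymes. Each sequence is the 250 bases before the transcription start in RefSeq, build GRCh38.p14, written 5′ to 3′ on the strand of the gene, with capitals marking the SRE (the first capitals of SREBF2), the E-box (CACGTG) and the CCAAT box, which reads ATTGG where it lies on the opposite strand. The windows are chr7:155297628-155297877 on the plus strand for INSIG1, chr22:41832855-41833104 on the plus strand for SREBF2 and chr5:43313413-43313662 on the minus strand for HMGCS1.
INSIG1: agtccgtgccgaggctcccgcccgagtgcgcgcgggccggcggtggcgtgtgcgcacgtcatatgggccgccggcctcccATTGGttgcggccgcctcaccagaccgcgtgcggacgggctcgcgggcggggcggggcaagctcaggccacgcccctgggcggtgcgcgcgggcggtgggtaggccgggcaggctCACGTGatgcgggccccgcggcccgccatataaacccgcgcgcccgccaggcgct
SREBF2: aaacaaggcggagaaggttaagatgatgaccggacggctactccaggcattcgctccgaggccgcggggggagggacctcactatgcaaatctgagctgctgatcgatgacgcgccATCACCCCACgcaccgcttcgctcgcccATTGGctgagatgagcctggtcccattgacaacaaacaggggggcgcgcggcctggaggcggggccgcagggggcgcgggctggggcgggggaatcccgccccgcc
HMGCS1: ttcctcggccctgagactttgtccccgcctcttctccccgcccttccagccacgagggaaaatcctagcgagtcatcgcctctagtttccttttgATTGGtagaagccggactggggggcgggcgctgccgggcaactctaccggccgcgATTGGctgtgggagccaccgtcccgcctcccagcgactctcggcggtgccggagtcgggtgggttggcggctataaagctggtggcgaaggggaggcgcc

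RefSeq entries were matched for 5 of the 8 genes, namely INSIG1, SREBF2, HMGCS1, SREBF1 and SCD. Motifs were searched on both strands in the 250 bases before the start. The exact SRE, spelled by the first capitals in the SREBF2 line, was found in the SREBF2 window alone of the 5, beginning 134 bases before the start, and in 12 of all 35116 promoters, or 0.0342%. The shorter form TCACNCCAC, which overlaps it, was likewise found only in SREBF2, against 0.883% of all promoters. The E-box CACGTG was found in INSIG1, 55 bases before the start, and in 6.34% of all promoters. A CCAAT box was present in HMGCS1, INSIG1, SCD and SREBF2, against 32.0% of all promoters, and the GC box GGGCGG in all 5 genes, against 42.6%. HMGCS1 had a further promoter entry, not printed here, at chr5:43313182-43313431, whose window held a GC box but no CCAAT box. A missing motif says only that these letters are not in the window.

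Across the 8 genes, INSIG1 and SREBF1 were higher in the DFX-treated tumors at an unadjusted p under 0.05 in limma, and the enzymes did not pass that threshold. INSIG1 was 1.63-fold higher, with all 3 DFX-treated tumors above all 3 controls. SREBF1 was also 1.63-fold higher by its brighter probe, but 1 control lay above 1 DFX-treated tumor, and its dimmer probe did not pass. The sterol enzymes HMGCS1, FDFT1 and SQLE had log2 fold changes between -0.05 and 0.14, and the fatty acid enzymes FASN and SCD had log2 fold changes of 0.29 and 0.40. In all, 2 of the 9 probes passed, both higher, where 8.41% of all tested probes did, 3.46% higher and 4.95% lower. By gene, 2 of 8 had a passing probe, where 10.6% of all genes did. After Benjamini-Hochberg adjustment in limma, none of the 9 probes passed 0.05. Nor did any of the 31760 tested probes, whose lowest adjusted value was 0.0672, although 2671 of them passed before adjustment. The plot of levels in each tumor gives the values behind these comparisons.

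**Figure D1:**
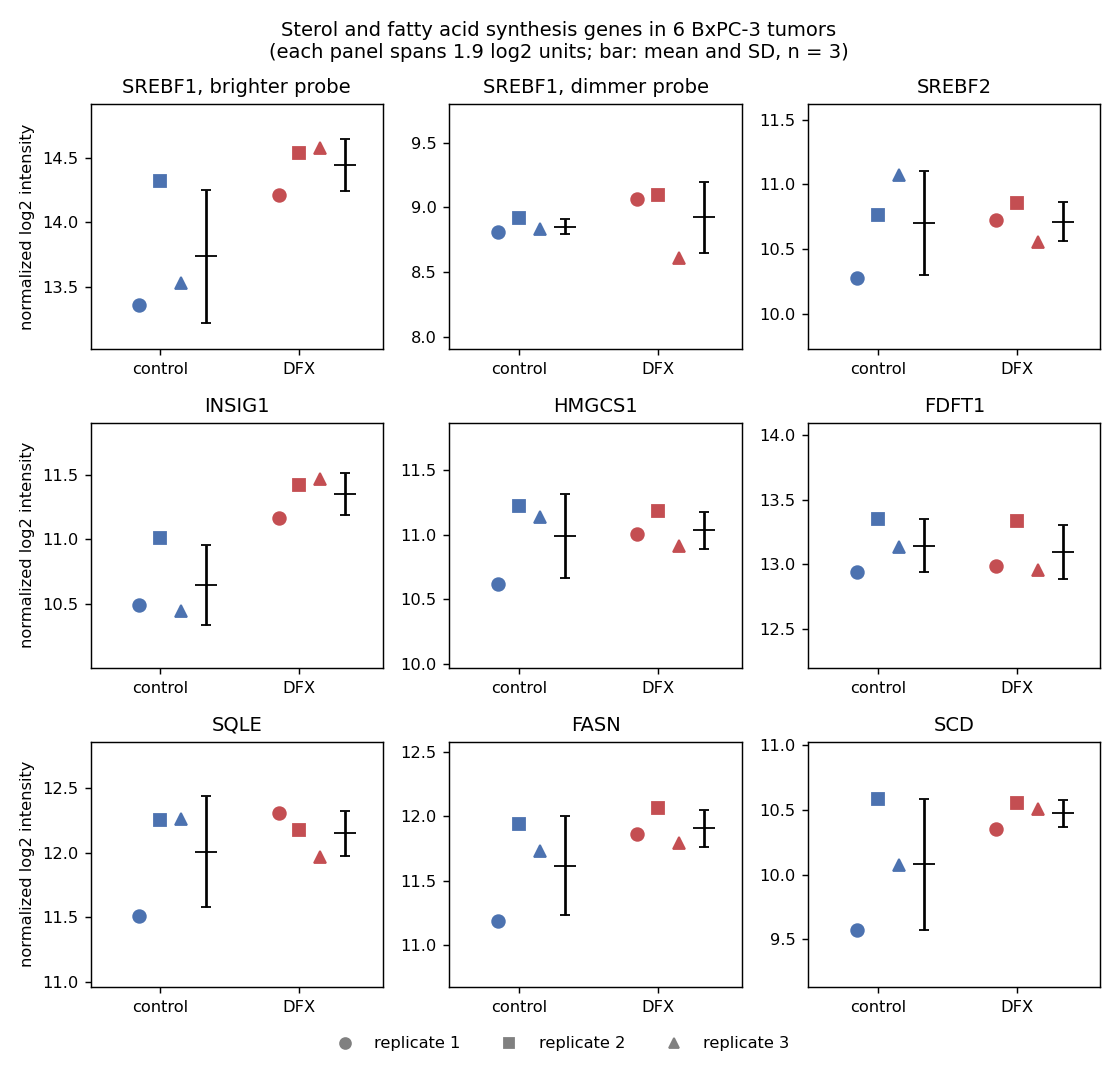
Normalized log2 intensity (y axis) of the 9 probes of the 8 genes in 3 control and 3 DFX-treated tumors (x axis), with circles, squares and triangles for replicates 1, 2 and 3 and bars for the mean and SD of each group. The INSIG1 panel is the only one in which the DFX-treated tumors, at 11.16 to 11.46, all lie above the controls, at 10.44 to 11.01, and the circle of control replicate 1 is the lowest point in 7 of the 9 panels.

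INSIG1 encodes the sterol-sensing membrane protein that retains SCAP. Its probe lies at chr7:155101843-155101902 on hg19. Its normalized log2 intensities were 10.49, 11.01 and 10.44 in control replicates 1, 2 and 3 and 11.16, 11.42 and 11.46 in the DFX-treated replicates. The lowest DFX-treated tumor was above the highest control, so the groups did not overlap. The mean was 10.65 ± 0.31 (SD, n = 3) in controls and 11.35 ± 0.16 (SD, n = 3) in DFX-treated tumors. The log2 fold change was 0.70 with a standard error of 0.19, which is 1.63-fold with a 95% interval of 1.18 to 2.24 (limma, unadjusted p = 0.00971, adjusted p = 0.514). A 2-sided exact permutation test gave p = 0.1, the smallest value that 3 tumors against 3 allow. INSIG1 was the only one of the 9 probes without overlap, where 15.5% of all tested probes had none, 6.33% with the DFX-treated tumors higher and 9.15% with them lower. By the brightest probe of each gene, 15.4% had none.

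Some epithelial tumor markers were also higher. Of 8 such markers by their brightest probe, EPCAM, KRT8 and KRT18 were called higher in limma, with log2 fold changes of 0.43, 0.48 and 0.27, and 0 were called lower, where 7.91% of all genes were called. The other markers did not pass, with KRT7 at -0.17, KRT19 at 0.02, CDH1 at 0.06, CLDN4 at 0.19 and MUC1 at 0.71 (limma, unadjusted p = 0.179). In all, 7 of the 8 were above 0, with a median of 0.23, where 47.6% of all genes were above 0. Other KRT8 probes had -0.12 and 0.24, another KRT18 probe had 0.15 (limma, unadjusted p = 0.224) and another MUC1 probe had 0.25. The summed linear signal of the 8 markers was 661597 to 677982 in controls and 692064 to 701683 in DFX-treated tumors. KRT19, at 18.44 to 18.54 in the 6 tumors, was the largest part of that sum. Quantile normalization gives equal ranks equal values, which limits the difference that so bright a probe can show. Of 10 adipocyte markers, ADIPOQ, LEP, FABP4, CIDEA and LPL did not pass the detection filter. All 5 that passed had a log2 fold change above 0 by their brightest probe. However, PLIN1, at 1.30 (limma, unadjusted p = 0.155), was well above background on only 1 of the 6 arrays, and RETN, at 0.06, on 0. CIDEC and CFD were called higher, by 0.48 (limma, unadjusted p = 0.0126) and 0.54 (limma, unadjusted p = 0.0385), although another CIDEC probe had -0.09. The summed linear signal of those 5 was 6640 to 10638 in controls and 11059 to 12916 in DFX-treated tumors. CFD made up most of it in every tumor, so the sum largely repeats the CFD difference. The part of tumor cell or adipocyte content in the INSIG1 difference was not tested.

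SREBF1 encodes SREBP-1, the regulator of fatty acid genes, and was measured by 2 probes that lie 55 bases apart on chr17 of hg19. The brighter probe, at chr17:17715419-17715478, read 13.36, 14.32 and 13.53 in controls and 14.21, 14.54 and 14.58 in DFX-treated tumors. Control replicate 2 lay above DFX replicate 1, and the other controls were below every DFX-treated tumor. The mean was 13.73 ± 0.51 (SD, n = 3) against 14.44 ± 0.20 (SD, n = 3), a log2 fold change of 0.71 with a standard error of 0.27 (limma, unadjusted p = 0.0415, adjusted p = 0.581). The call rested on single tumors, since without control replicate 1 the log2 fold change was 0.52 (limma, unadjusted p = 0.121), without control replicate 3 it was 0.60 (limma, unadjusted p = 0.118), without DFX replicate 2 it was 0.66 (limma, unadjusted p = 0.101) and without DFX replicate 3 it was 0.64 (limma, unadjusted p = 0.109).

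The dimmer SREBF1 probe, at chr17:17715304-17715363, read 8.81, 8.92 and 8.83 in controls and 9.07, 9.10 and 8.61 in DFX-treated tumors. DFX replicates 1 and 2 lay above every control and DFX replicate 3 below every control. Its log2 fold change was 0.07 with a 95% interval from -0.32 to 0.46 (limma, unadjusted p = 0.667). Relative to the control means, the brighter probe exceeded the dimmer by 0.26, 0.56 and 1.09 in the DFX-treated tumors and by -0.33, 0.52 and -0.19 in the controls. The log2 fold changes of the probes thus differed by 0.64 (2-sided exact permutation test, p = 0.2). With 3 tumors against 3 that test allows no p below 0.1, so it cannot decide whether the probes differ.

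SREBF2 encodes SREBP-2, the regulator of the sterol pathway. Its probe at chr22:42302199-42302258 on hg19 read 10.28, 10.76 and 11.07 in controls and 10.72, 10.86 and 10.55 in DFX-treated tumors. The DFX-treated tumors fell inside the range of the controls. The SD was 0.40 in controls and 0.15 in DFX-treated tumors (n = 3 each), and the 95% interval of the log2 fold change ran from -0.53 to 0.55 (limma, unadjusted p = 0.977).

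HMGCS1, which condenses acetyl-CoA units into HMG-CoA at the entry to the pathway, read 10.62, 11.22 and 11.14 in controls and 11.00, 11.18 and 10.91 in DFX-treated tumors. Control replicate 1 was the lowest tumor and control replicate 2 the highest. The log2 fold change of the probe, at chr5:43290117-43290176 on hg19, was 0.04 with a 95% interval from -0.42 to 0.51 (limma, unadjusted p = 0.832). FDFT1, the squalene synthase that commits farnesyl units to sterols, read 12.94, 13.35 and 13.13 in controls and 12.99, 13.34 and 12.96 in DFX-treated tumors.

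The FDFT1 groups covered nearly the same span, with replicate 2 the highest in both. Its log2 fold change was -0.05 with a 95% interval from -0.45 to 0.36 (limma, unadjusted p = 0.781), the only one of the 9 below 0. SQLE, the squalene epoxidase that performs the first oxygen-dependent step of the sterol branch, read 11.51, 12.25 and 12.26 in controls and 12.31, 12.18 and 11.97 in DFX-treated tumors. Control replicate 1 stood below the other 5 tumors, which lay close together. The log2 fold change of SQLE was 0.14 with a 95% interval from -0.43 to 0.72 (limma, unadjusted p = 0.567). These intervals leave room for differences in either direction in each of the 3 sterol enzymes. The probes of FDFT1 and SQLE lie at chr8:11696201-11696260 and chr8:126034443-126034502 on hg19.

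FASN, the multienzyme that builds palmitate, read 11.19, 11.94 and 11.73 in controls and 11.86, 12.07 and 11.79 in DFX-treated tumors. Only control replicate 2 overlapped the DFX-treated tumors. The log2 fold change of FASN, whose probe lies at chr17:80036216-80036275 on hg19, was 0.29 with a 95% interval from -0.23 to 0.81 (limma, unadjusted p = 0.225). SCD, the iron-dependent desaturase that makes oleate from stearate, read 9.57, 10.59 and 10.07 in controls and 10.36, 10.56 and 10.51 in DFX-treated tumors. Control replicate 2 was the highest of all 6 tumors and the other controls were the lowest. The log2 fold change of SCD, at chr10:102123917-102123976 on hg19, was 0.40 with a 95% interval from -0.24 to 1.03 (limma, unadjusted p = 0.179). Without control replicate 2, SCD passed the threshold, at 0.65 (limma, unadjusted p = 0.0201).

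**Figure D2:**
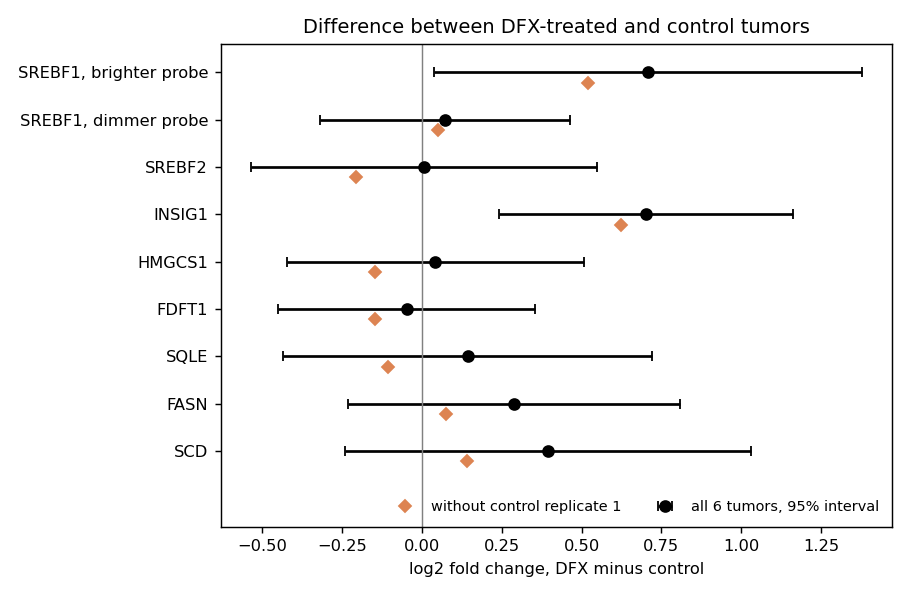
Log2 fold change of DFX-treated over control tumors (x axis) for the 9 probes (y axis), with black circles and bars for the limma estimate and its 95% interval over all 6 tumors and orange diamonds for the estimate without control replicate 1. The intervals of INSIG1 and of the brighter SREBF1 probe are the only ones above 0, and without control replicate 1 SREBF2, HMGCS1 and SQLE move below 0.

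Control replicate 1 stood low for most of these genes. It was the lowest of the 6 tumors for 7 of the 9 probes, where 15.3% of all tested probes were lowest there. The exceptions were INSIG1, lowest in control replicate 3, and the dimmer SREBF1 probe, lowest in DFX replicate 3. The median deviation of the 8 genes from their own means was -0.54 in control replicate 1, against 0.19 and -0.0093 in the other controls and 0.09, 0.25 and -0.04 in the DFX-treated tumors. Red blood cell markers were highest in the same tumor, with a median deviation of 0.92 over 4 tested markers, against 0.12 and 0.18 in the other controls and -0.46, -0.25 and -0.47 in the DFX-treated tumors. The part of blood content in the lipid gene levels was not tested.

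With all 6 tumors, 7 of the 8 genes were higher in the DFX-treated tumors by their brightest probe, with a median log2 fold change of 0.22, while over all genes 47.6% were higher and the median was -0.01. Without control replicate 1, 4 genes were higher and 4 lower, and the median was -0.016. INSIG1 then had a log2 fold change of 0.62 (limma, unadjusted p = 0.0348) and was the only one of the 8 genes to pass, where 8.03% of all genes did. FASN and SCD had 0.07 and 0.14, and SREBF2, HMGCS1, FDFT1 and SQLE had -0.21, -0.15, -0.15 and -0.11.

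**Figure D3:**
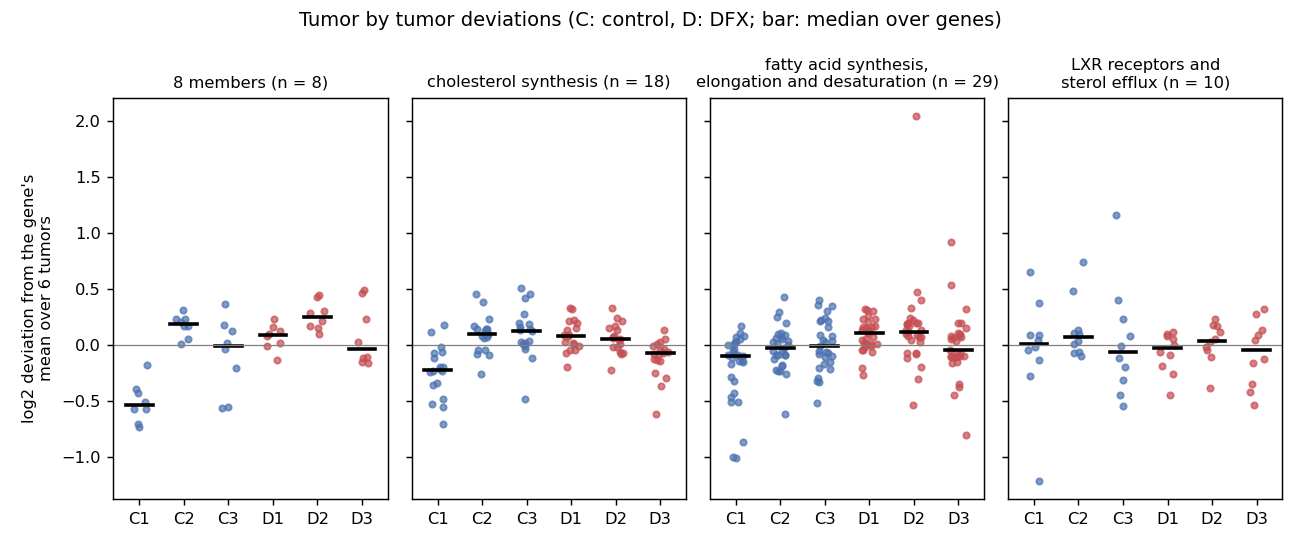
Log2 deviation of each gene from its own mean over 6 tumors (y axis) in control tumors C1 to C3 and DFX-treated tumors D1 to D3 (x axis), with points for genes and bars for the median in each panel. The bar of the 8 genes lies at -0.54 in C1 and between -0.04 and 0.25 in the other tumors.

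The controls were also the more variable group. The SD was larger in controls than in DFX-treated tumors for 7 of the 9 probes, against 53.7% of all tested probes. The median SD over the 9 probes was 0.385 in controls and 0.164 in DFX-treated tumors, where over all probes it was 0.199 and 0.181. For 8 of the 9 probes, the difference between group means was smaller than the range among the 3 controls, INSIG1 being the exception.

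Likeness across the 6 tumors was described by Pearson's r among 13979 named genes that were well above background on all arrays. Symbols beginning with AK, AL, BC, BX, CR, DA or DB were left out along with unnamed sequences. The ranks therefore do not cover every named gene. The points share their arrays and their normalization, and control replicate 1 lies far from the rest for most of these genes. For HMGCS1, the closest genes were WTAP at r = 0.999, RBFA at 0.982 and INTS3 at 0.981 (n = 6 tumors). SQLE ranked 85 for HMGCS1 with r = 0.902, FASN between it and SREBF2 with r = 0.894, SREBF2 ranked 143 with r = 0.876, and INSIG1 ranked 4061 with r = 0.313. For FASN, the closest were CDH3 at r = 0.985, ARHGAP39 at 0.984 and FGFBP1 at 0.980 (n = 6 tumors), and SCD ranked 37 with r = 0.943.

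The other enzymes of cholesterol synthesis were taken from a list that leaves out the 8 genes above. Of 18 tested genes, 1 was called higher and 0 lower in limma, which is 5.56% where 7.91% of all genes by their brightest probe were. The median over the 18 genes was -0.01, and 12 of them were lowest in control replicate 1. Without that tumor, the median was -0.13 and 2 genes, or 11.1%, were called, 1 in each direction. Over all genes, 8.03% were called in that setting. Without DFX replicate 1 or DFX replicate 2, 0 were called.

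In the control of SREBP processing, 0 of 8 genes were called. SCAP, the escort of the SREBPs, had a log2 fold change of 0.22 (limma, unadjusted p = 0.155), and INSIG2, the relative of INSIG1, had 0.10 and 0.06 by its 2 probes. Of 6 SREBP targets in sterol uptake and transport, 0 were called, and 5 were lowest in control replicate 1. Of 10 LXR and sterol efflux genes, 0 were called, with a median of -0.06.

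Of 29 tested genes of a list of fatty acid synthesis, elongation and desaturation, 4 were called higher and 0 lower, or 13.8%, where 7.91% of all genes were called. The list also holds acyl-CoA synthetases and genes of glycerolipid synthesis, among them the called genes ACSL5 and LPIN1. Its counts are therefore not for fatty acid synthesis alone. In 21 of the 29 the log2 fold change was above 0, with a median of 0.12, where 47.6% of all genes were above 0. However, the 21 include THRSP, whose value of 0.12 is that median and which was well above background on 0 arrays. They also include ACACB, the highest of the list at 1.03 (limma, unadjusted p = 0.197), which was well above background on only 1 array. ELOVL2, ELOVL3 and ELOVL4 did not pass the detection filter. LPIN1, a phosphatidate phosphatase and coregulator, read 8.23, 8.75 and 8.42 in controls and 8.86, 8.93 and 9.28 in DFX-treated tumors, a log2 fold change of 0.56 (limma, unadjusted p = 0.0234). Its dimmer tested probe had 0.70 (limma, unadjusted p = 0.196). OXSM, the condensing enzyme of mitochondrial fatty acid synthesis, had 0.31 (limma, unadjusted p = 0.0178), and ACSL5, an acyl-CoA synthetase, had 0.28 (limma, unadjusted p = 0.0408). PTPLB, a dehydratase of fatty acid elongation, had 0.26 by its brighter probe (limma, unadjusted p = 0.0493) and -0.49 by its dimmer one (limma, unadjusted p = 0.0208), so its probes went in opposite directions. The feeders of FASN did not pass, with ACACA at 0.22 (limma, unadjusted p = 0.134) and ACLY at 0.06 (limma, unadjusted p = 0.771). The count of 4 was 2 without control replicate 1 or control replicate 2, and 1 when DFX replicate 1, DFX replicate 2 or control replicate 3 was left out.

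**Figure D4:**
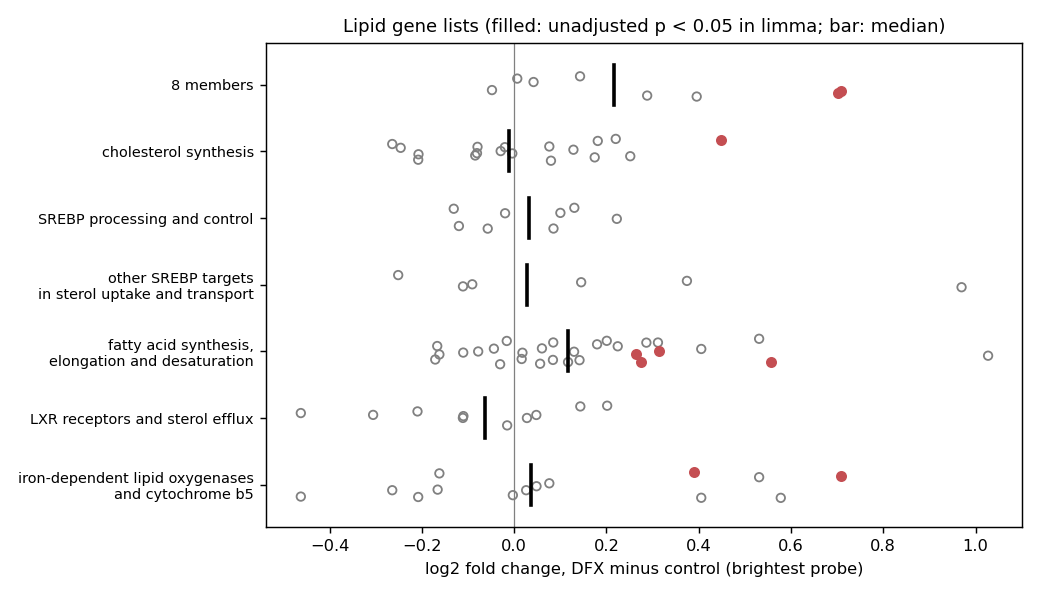
Log2 fold change of DFX-treated over control tumors by the brightest probe (x axis) for the genes of each lipid list (y axis), with filled points for genes at an unadjusted p under 0.05 in limma and bars for the list median. The fatty acid list has 4 filled points, all above 0, and the cholesterol synthesis list has 1.

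Among 14 iron-dependent lipid oxygenases and cytochrome b5 genes, 2 were called higher and 0 lower, or 14.3%, where 7.91% of all genes were called. Of these genes, 8 had a log2 fold change above 0 and 6 below 0. Without control replicate 1, 5 of the 14 were called, 3 higher and 2 lower, or 35.7%, where 8.03% of all genes were called. Several of the 14 also belong to the lists above, so the lists are not separate counts. FA2H, the iron-dependent fatty acid 2-hydroxylase, read 12.70, 12.81 and 11.90 in controls and 13.09, 13.40 and 13.04 in DFX-treated tumors, a log2 fold change of 0.71 (limma, unadjusted p = 0.0370). CYB5A, the electron carrier of desaturases and hydroxylases, had 0.39 by its brighter probe (limma, unadjusted p = 0.0422) and 0.32 by its dimmer one (limma, unadjusted p = 0.113).

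The plot of the settings summarizes how far each of the 9 probes moved with the processing. Over 18 alternatives, the INSIG1 log2 fold change stayed between 0.49 and 0.98 and its unadjusted p in limma, or in the linear model without moderation, between 0.0019 and 0.0368. The brighter SREBF1 probe ran from 0.41 to 1.11 and kept its call under 10 of the 18. The upper ends of INSIG1 and SREBF1 came from the slide column as a block. Columns 1 and 3 of the slide held 1 array each, DFX replicate 1 and control replicate 2. Those tumors therefore did not inform the estimate in that setting.

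**Figure D5:**
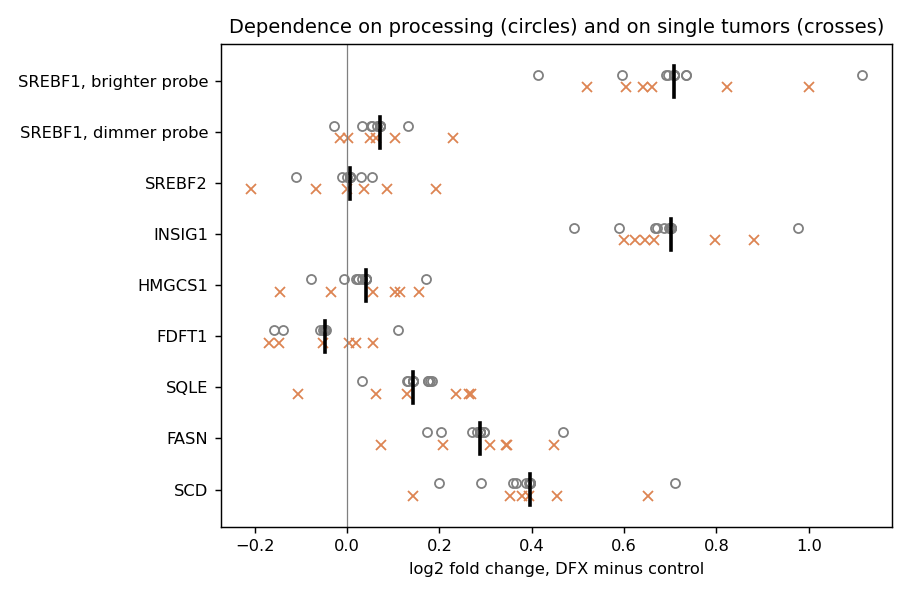
Log2 fold change of DFX-treated over control tumors (x axis) of the 9 probes (y axis) under each alternative processing (circles) and with each tumor left out (crosses), and a black bar for the value reported above. INSIG1 ranges from 0.49 to 0.98 and SREBF2 spans 0.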

How the data were processed

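RNA of 6 tumors was labeled with Cy3 and hybridized to 60K Agilent arrays. The authors deposited 1 scanner file per array with intensities on a linear scale, a p-value of each spot against its background, and flags, not normalized between arrays. The deposited table of processed values holds the authors' normalized intensities and was used as an alternative. The labels name Agilent Feature Extraction 9.5.1.1, the file headers 10.7.1.1.

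As the methods state, values were put on a log2 scale and quantile-normalized, here with the processed signal of the 58717 non-control spots. The log2 values here were computed from the deposited intensities. Outlier spot values (1398) were left out, spots were averaged per probe, and only probes detected on every one of the 6 arrays (background p-value below 0.05) were tested (31760 probes, 23768 gene names). Groups followed the labels. The moderated linear model of limma (version 3.58.1, R 4.3.3) compared them, and p-values were adjusted by Benjamini-Hochberg across the tested probes. A call is an unadjusted p under 0.05, the threshold of the methods, which use Kruskal-Wallis for animal data. Procedures were tested on simulated data. The number of arrays limits the precision.

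The 8 genes and the lists were chosen with earlier results of these data known. Genes named are the 8, called or undetected list members, ACACA, ACLY, INSIG2 and SCAP, and the 3 compared genes most like HMGCS1 and FASN. PLIN1, RETN, KRT7, KRT19, CDH1, CLDN4, MUC1, THRSP, ACACB and HSD17B12 were chosen after their values were seen. Some genes that the rule names are not reported here. In the list counts a gene is its brightest tested probe. Of the other marker lists, fibroblast markers had 1 called higher (LUM) and 1 lower (DCN) of 7 tested, leukocyte markers 0 of 5, and red blood cell markers 2 lower (HBA2 and HBD) of 4. PDGFRB, CSF1R, MS4A1 and ALAS2 did not pass the detection filter. Probes were placed on hg19 by the annotation of the array, and promoters on GRCh38.p14 by RefSeq. The replicate numbers do not pair the tumors, since deviations of same-numbered tumors correlated at 0.0155 to 0.0269. Alternatives covered normalization, background correction, signal column, detection filter, outlier flags, the authors' values, the test, array weights, replicate number and slide column as blocks, the probe rule, and each tumor left out.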

Additional observations from a re-analysis of the deposited data

How the results depend on the processing

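The count of probes called was 2671, and was 4918 by the Kruskal-Wallis H test, 4206 with array weights, 1418 with the slide column as a block and 1886 to 2713 with a tumor left out. Of the 8 genes, 2 were called, and likewise 2 of their 9 probes. Both counts were 1 with median scaling, with no detection filter, with array weights, without moderation of the variance and by the Kruskal-Wallis H test, and 1 to 3 with a tumor left out. A call by the Kruskal-Wallis H test means only that the groups did not overlap, so it repeats the count without overlap given above. Its p-value came from the chi-square approximation, while 3 tumors against 3 allow no exact p below 0.1. INSIG1 was the gene called under each of those 5 settings. With a tumor left out, it was called each time, together with SREBF1 without DFX replicate 1 and with SREBF1 and SCD without control replicate 2. The brighter SREBF1 probe had 0.60 with median scaling (limma, unadjusted p = 0.0682) and 0.41 with array weights (limma, unadjusted p = 0.187). The cholesterol synthesis count of 1 became 3 by the Kruskal-Wallis H test, 0 with the slide column as a block and 0 to 2 with a tumor left out. The fatty acid count of 4 became 2 with 75th percentile scaling, 1 with median scaling, 7 by the Kruskal-Wallis H test, 1 with the slide column as a block and 1 to 4 with a tumor left out. With the replicate number as a block the fatty acid count was 1 and 2414 probes were called, and the block changed no call among the 8 genes.

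Values near 0 changed sign. SREBF2 was -0.11 with median scaling and -0.012 with 75th percentile scaling, HMGCS1 -0.078 with median scaling and -0.0064 with array weights, the dimmer SREBF1 probe -0.028 with median scaling, and FDFT1 0.11 with the slide column as a block. With a tumor left out, SREBF2 ran from -0.21 to 0.19, HMGCS1 from -0.15 to 0.16, FDFT1 from -0.17 to 0.057, SQLE from -0.11 to 0.27 and the dimmer SREBF1 probe from -0.015 to 0.23. Median scaling moved the median of all probes from -0.02 to -0.10, and lower probes made up 58.9% of those called, against 71.9% after median scaling and 42.8% after 75th percentile scaling. Adjusted calls numbered 0, and 2 or 3 under 5 alternatives, none of them a probe of the 8 genes. The cause of these shifts was not tested.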

Other observations

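A further probe of a lipid gene was singled out after its values were seen. HSD17B12, a ketoacyl reductase of fatty acid elongation, had a second, dimmer probe at 10.10, 10.12 and 10.07 in controls and 10.79, 10.69 and 10.83 in DFX-treated tumors. All DFX-treated tumors lay above all controls, with a log2 fold change of 0.67 and a standard error of 0.098 (limma, unadjusted p = 0.000454, adjusted p = 0.502), while its brightest probe had 0.18 (limma, unadjusted p = 0.102).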
